A study of Mus musculus with 8 samples.

Results

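The genes examined here encode the GDNF family of secreted growth factors and the receptors they act on: the ligands Gdnf, Artn (artemin) and Nrtn (neurturin), the co-receptors Gfra1, Gfra2 and Gfra3, and the receptor tyrosine kinase Ret. They were found as the probe sets of an Affymetrix mouse array that the platform annotation maps to these 7 genes. This gave 14 probe sets of 45037 tested: 1 each for Gdnf, Artn, Nrtn and Gfra3, 3 for Gfra1, 5 for Gfra2 and 2 for Ret. None of them is annotated to another gene as well. Probe sets of the same gene read the same RNA and are not independent of each other.

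There were 4 groups of 2 arrays: c-Jun KO cut, control cut, c-Jun KO uncut and control uncut. The sciatic nerve of adult mice was transected on 1 side, and after 7 days a 10 mm piece of the distal stump (cut) and the uninjured nerve of the opposite leg (uncut) were collected. Control mice are labelled WT, and the labels give neither strain nor sex. Each array held RNA of nerves pooled from 4 or 6 mice, and the design text calls the pair of arrays in a group independent samples. Both uncut groups are nerves of operated animals. The labels name the mutant only as c-Jun KO. In the published work of this group the mutation is a deletion of floxed Jun in Schwann cells, which leaves Jun intact in other cells of the nerve. The labels call the tissue Schwann cells, but whole nerve segments were taken, so a lower value can mean fewer cells of a type or less RNA per cell, and these cannot be told apart.

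GDNF family ligands bind a GFRα protein, which is anchored to the outer membrane by a lipid, and the pair then recruits and activates Ret. GDNF prefers GFRα1, neurturin GFRα2 and artemin GFRα3. GDNF is known as a survival factor for motor neurons and artemin as one for sensory and sympathetic neurons. Schwann cells of a denervated nerve are known to make GDNF and GFRα1 while carrying little Ret, which is found on axons, and GDNF can also signal without Ret through the adhesion molecule NCAM.

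Values are log2 intensities made with RMA, on which the array medians ranged from 6.59 to 6.64. The replicate arrays of a group correlated with r = 0.993 to 0.994 across all probe sets. Jun, the targeted gene, read 10.39 and 10.80 in c-Jun KO cut nerve, against 11.88 and 11.96 in control cut nerve, on its brighter probe set. In uncut nerve it read 9.62 and 9.59 in c-Jun KO and 9.58 and 9.70 in control. The difference of the mutant from control was -1.33 in cut nerve (limma, p adjusted by Benjamini-Hochberg = 0.0097) and -0.04 in uncut nerve (adjusted p = 0.9999). The first call held in 5 of 8 fits without 1 array (-1.53 to -1.12, adjusted p up to 0.0762, without control cut replicate 1) and was lost without the 2 cut arrays with more of the milk protein Csn2 (-1.57, adjusted p = 0.0622). On its dimmer probe set Jun differed by -1.19 there (adjusted p = 0.0559). Whether these probes lie in the deleted part of the gene is not known here. Csn2 varied within groups, at 3.69 and 9.15 in c-Jun KO cut nerve, 11.47 and 7.03 in control cut nerve, 13.01 and 10.33 in c-Jun KO uncut nerve and 3.50 and 4.14 in control uncut nerve. Both c-Jun KO uncut arrays were far above both control uncut arrays, so genotype and Csn2 cannot be told apart in uncut nerve. Keratins moved too: Krt8 was higher in c-Jun KO than in control uncut nerve (2.79 on 1 probe set, adjusted p = 0.0147, interaction -3.32, adjusted p = 0.0337). Krt18 rose after the cut by 1.61 in c-Jun KO and 4.91 in control nerve. Their part in the results was not tested. In an added comparison the array with the higher Csn2 value in each group of cut nerve was left out, and it is given where it ended a call.

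Promoter sequences were set out for the ligands that differed between the genotypes and for the co-receptor that rose in both, because the mutated gene encodes a DNA-binding factor. Windows of RefSeq start sites (GRCm38.p6) were used for 4 of the 7 genes, Gdnf (with 2 start sites), Artn, Nrtn and Gfra1. None was given for Gfra2 and Ret, and Gfra3 was left out of the search. The 250 bases before the start site are shown 5′ to 3′ on the strand of the gene, for the upstream start of Gdnf (chr15:7809798-7810047, plus strand), for Artn (chr4:117929764-117930013, minus strand) and for Gfra1 (chr19:58455399-58455648, minus strand). Capitals mark a TATA box.
Gdnf: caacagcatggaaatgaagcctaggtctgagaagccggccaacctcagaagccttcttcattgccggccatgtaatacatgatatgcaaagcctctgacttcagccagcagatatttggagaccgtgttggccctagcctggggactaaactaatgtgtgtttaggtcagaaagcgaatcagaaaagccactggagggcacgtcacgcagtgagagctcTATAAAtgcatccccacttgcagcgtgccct
Artn: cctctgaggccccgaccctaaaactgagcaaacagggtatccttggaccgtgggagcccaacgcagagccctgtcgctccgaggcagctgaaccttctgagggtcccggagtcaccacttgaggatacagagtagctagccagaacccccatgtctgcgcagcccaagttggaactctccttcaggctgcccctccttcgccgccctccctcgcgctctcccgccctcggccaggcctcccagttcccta
Gfra1: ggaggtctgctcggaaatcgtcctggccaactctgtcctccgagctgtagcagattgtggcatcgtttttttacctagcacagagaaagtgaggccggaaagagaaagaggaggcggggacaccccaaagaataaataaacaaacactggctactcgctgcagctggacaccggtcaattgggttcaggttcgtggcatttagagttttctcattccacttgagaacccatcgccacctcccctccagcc
The AP-1 motif TGANTCA (both strands), which c-Jun dimers are known to bind, was found in 0 of the 5 windows searched, beside 6.75% of all 32851 windows of the same length. The cAMP response element TGACGTCA, also bound by dimers that hold c-Jun, was in 0 of the 5, beside 1.55% of all windows. The letters TATAAA, searched on both strands, were found in 1 of the 5, the upstream Gdnf window, starting at position -31. Of all windows 12.4% held them on either strand. The windows of Artn and Nrtn held 63.6% and 64.8% G and C, those of Gdnf 50.8% and 46.8% and that of Gfra1 52.4%, beside a median of 52.4% over all windows. These letters say nothing about sites farther from the start.

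Gdnf was near the bottom of the array scale in uncut nerve and rose in the cut nerve of both genotypes. The values were 7.48 and 8.00 in c-Jun KO cut nerve and 9.97 and 9.59 in control cut nerve. In uncut nerve they were 4.50 and 4.74 in c-Jun KO and 4.70 and 4.40 in control. Every cut array lay above every uncut array, both mutant cut arrays lay below both control cut arrays, and the uncut genotypes overlapped. All 4 uncut values lay under the 25th percentile of their array (4.94 to 5.01 over the arrays), and only the 4 cut arrays had Gdnf above the array median.

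The rise of Gdnf after the cut was 3.12 in c-Jun KO nerve (SE 0.21, 8.71-fold, limma adjusted p = 3.2e-05) and 5.23 in control nerve (SE 0.21, 37.5-fold, adjusted p = 2.0e-06). In cut nerve Gdnf was lower in the mutant by 2.04 (log2 difference -2.04, SE 0.21, 4.11-fold, adjusted p = 0.0079). This call was lost without c-Jun KO cut replicate 1 (-1.78, adjusted p = 0.0519) or control cut replicate 1 (-1.85, adjusted p = 0.0757), and without the 2 cut arrays with more Csn2 (-2.11, adjusted p = 0.0622), while its size moved little. In uncut nerve the difference was 0.07, with a 95% interval of -0.40 to 0.54. The difference of the rises was -2.11 (95% interval -2.78 to -1.44), which did not pass over all probe sets (adjusted p = 0.0677). The uncut values carry no detection calls and are compressed by the processing, so the size of both rises is uncertain and the folds may be too small.

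Artn was dimmer and followed the same order. It read 5.43 and 5.81 in c-Jun KO cut nerve, against 6.94 and 6.59 in control cut nerve. The uncut values were 5.08 and 5.08 in c-Jun KO and 5.09 and 4.9997 in control. The cut arrays lay above the uncut arrays in each genotype without overlap, and the mutant cut arrays lay below both control cut arrays. Only 1 of the 8 arrays, control cut replicate 1, had Artn above its median, so the gene was dim throughout.

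After the cut the change of Artn was 0.54 in c-Jun KO nerve (SE 0.16, 1.45-fold, limma adjusted p = 0.0511), just short of the threshold. In control nerve Artn rose by 1.72 (SE 0.16, 3.30-fold, adjusted p = 0.00016). In cut nerve Artn was lower in the mutant (log2 difference -1.15, SE 0.16, 2.22-fold, adjusted p = 0.0253). This call held in 3 of 8 fits that left out 1 array, with a difference between -1.33 and -0.96 and an adjusted p of up to 0.176, reached without c-Jun KO cut replicate 1. It was also lost without the 2 cut arrays with more Csn2 (-1.16, adjusted p = 0.119). The uncut genotypes differed by 0.04 (95% interval -0.32 to 0.40), and the difference of the responses was -1.19 (95% interval -1.70 to -0.68, adjusted p = 0.184).

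Nrtn, the ligand of GFRα2, did not pass in any comparison. It read 7.65 and 7.76 in c-Jun KO cut nerve, 7.88 and 7.92 in control cut nerve, 7.95 and 7.80 in c-Jun KO uncut nerve and 7.84 and 7.51 in control uncut nerve. The change after the cut was -0.17 in c-Jun KO nerve (95% interval -0.47 to 0.14) and 0.23 in control nerve (-0.08 to 0.53). In cut nerve the mutant differed from control by -0.20 (-0.50 to 0.11).

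**Figure D1:**
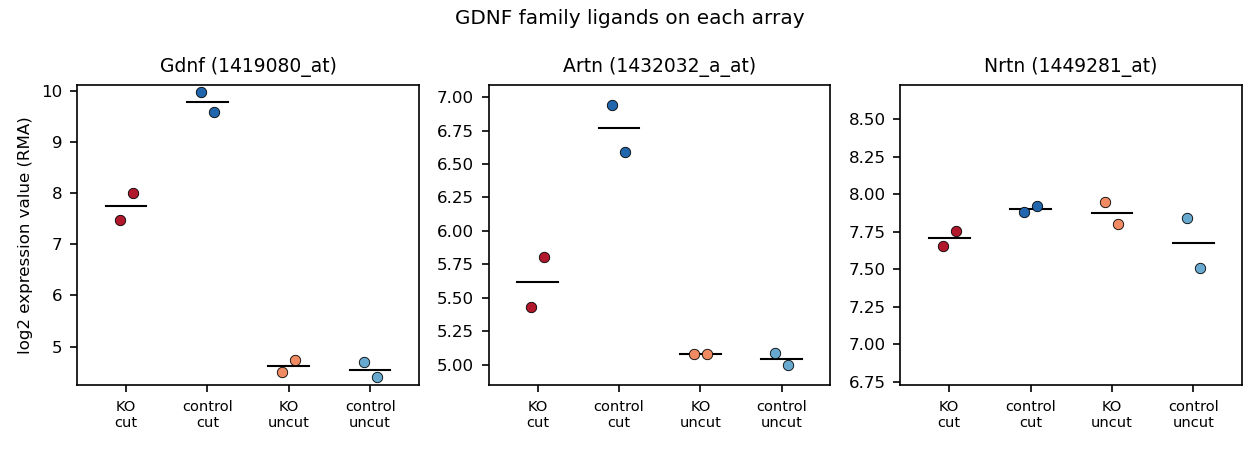
Log2 expression values (RMA, vertical axis) of Gdnf, Artn and Nrtn on each of the 8 arrays, by group, with points for arrays, bars for group means and a scale of its own for each panel. Gdnf lies at 7.48 and 8.00 in c-Jun KO cut nerve, below 9.97 and 9.59 in control cut nerve and above all uncut values, Artn shows the same order, and Nrtn stays between 7.51 and 7.95.

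Gfra1, the co-receptor for GDNF, rose after the cut in both genotypes by about the same amount. On its brightest probe set (1439015_at) it read 11.96 and 11.81 in c-Jun KO cut nerve and 12.13 and 12.08 in control cut nerve. In uncut nerve it read 10.27 and 10.42 in c-Jun KO and 10.50 and 10.54 in control. The cut and uncut values were far apart, while the genotypes lay close together, the mutant slightly lower in both states.

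That probe set rose by 1.53 in c-Jun KO nerve (SE 0.11, 2.90-fold, limma adjusted p = 5.0e-05) and by 1.58 in control nerve (SE 0.11, 2.995-fold, adjusted p = 3.3e-05). The other Gfra1 probe sets gave 1.77 and 1.60 in the mutant, and 1.82 and 1.80 in control, and each of these passed. The mutant rise was between 88.9% and 97.1% of that in control on the log2 scale over the 3 probe sets. The difference of the rises on the brightest one was -0.05, with a 95% interval of -0.40 to 0.31, and in cut nerve the genotypes differed by -0.22 (-0.48 to 0.03, adjusted p = 0.683). On the dimmest Gfra1 probe set (1421973_at) the control cut arrays were 9.17 and 10.20, so that the genotypes overlapped there. They also overlapped in cut nerve on 1450440_at, with 11.17 and 11.03 in c-Jun KO and 11.05 and 11.60 in control.

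Gfra2, the co-receptor for neurturin, was lower in mutant cut nerve on the pair of probe sets with the suffix x_at. On the brighter one (1433716_x_at) the values were 7.87 and 7.77 in c-Jun KO cut nerve, 8.80 and 8.60 in control cut nerve, 8.73 and 8.71 in c-Jun KO uncut nerve and 9.01 and 9.16 in control uncut nerve. The mutant cut arrays were the lowest of the 8 and the control uncut arrays the highest, neither overlapping with another group. The second (1459847_x_at) read 7.13 and 7.33 in c-Jun KO cut nerve and 8.04 and 7.81 in control cut nerve. Its uncut values were 7.92 and 7.88 in c-Jun KO and 8.07 and 8.15 in control, again with the mutant cut arrays lowest and the control uncut arrays highest.

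In cut nerve the brighter Gfra2 probe set was lower in the mutant by 0.88 (log2 difference -0.88, SE 0.12, 1.84-fold, limma adjusted p = 0.0227), and the second differed by -0.69 (SE 0.12, adjusted p = 0.0684). The first call held in 4 of 8 fits without 1 array (differences between -0.98 and -0.78, adjusted p up to 0.152, without control cut replicate 1) and was lost without the 2 cut arrays with more Csn2 (-0.73, adjusted p = 0.386). After the cut both fell in c-Jun KO nerve, by 0.89 (log2 -0.89, adjusted p = 0.0011) and by 0.66 (log2 -0.66, adjusted p = 0.0070). In control nerve the changes were -0.39 (adjusted p = 0.0477, a call lost in all 8 fits without 1 array, at 0.0569 to 0.242, and at 0.0822 without the 2 cut arrays with more Csn2) and -0.19 (adjusted p = 0.356). The difference of these responses was -0.51 and -0.47, and neither passed (adjusted p = 0.620 and 0.752). Already in uncut nerve the mutant stood at -0.37 (95% interval -0.63 to -0.11) and -0.22 (-0.50 to 0.06) relative to control. The uncut groups did not overlap on either probe set, and neither difference passed (limma adjusted p = 0.9999 for both).

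The other 3 Gfra2 probe sets passed in no comparison of the genotypes or of cut with uncut nerve. In cut nerve they stood at -0.14, -0.33 and -0.22 in the mutant relative to control, so all 5 had the same sign there, and their values ranged from 5.52 to 7.77 over the 8 arrays. The suffix x_at marks probe sets of which some probes also match other sequences, so the Gfra2 result rests on the less specific pair. With the 5 probe sets averaged, the difference was -0.45 (adjusted p = 0.0535).

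Gfra3, the co-receptor for artemin, stayed within a narrow range. It read 7.62 and 7.66 in c-Jun KO cut nerve, 7.57 and 7.76 in control cut nerve, 7.85 and 7.84 in c-Jun KO uncut nerve and 7.69 and 7.67 in control uncut nerve. No comparison passed. The change after the cut was -0.20 in the mutant (95% interval -0.45 to 0.04) and -0.02 in control (-0.26 to 0.23), where Artn rose.

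Ret, the signalling kinase of the family, fell after the cut on its brighter probe set (1436359_at). The values were 6.80 and 6.45 in c-Jun KO cut nerve, 6.33 and 6.40 in control cut nerve, 7.31 and 7.38 in c-Jun KO uncut nerve and 7.38 and 7.63 in control uncut nerve. All cut arrays were below all uncut arrays. The change was -0.72 in c-Jun KO nerve (SE 0.14, limma adjusted p = 0.0097) and -1.14 in control nerve (SE 0.14, 2.20-fold, adjusted p = 0.00086). In the mutant the call was lost without c-Jun KO cut replicate 2 (-0.55, adjusted p = 0.0688) or c-Jun KO uncut replicate 2 (-0.69, adjusted p = 0.0596), and without the 2 cut arrays with more Csn2 (-0.55, adjusted p = 0.102).

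Of 7 neuron markers the neurofilament gene Nefl (-3.22 in c-Jun KO, -3.22 in control) and the synaptic gene Snap25 (-1.29 in c-Jun KO, -1.55 in control) fell as well, and Tubb3 rose (2.04 in c-Jun KO, 3.11 in control). The other 4 markers passed in neither genotype. In cut nerve Nefl averaged 3.86 in c-Jun KO and 3.96 in control, and Snap25 3.85 and 3.56. These means lay under the lowest 25th percentile of an array (4.94), so the sizes of both falls are uncertain. The part of these genes in the fall of Ret was not tested.

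In cut nerve Ret differed between the genotypes by 0.26 on this probe set (95% interval -0.07 to 0.59, adjusted p = 0.753). The second Ret probe set (1421359_at) stood above its array median on only 1 array and did not pass. It gave -0.25 after the cut in c-Jun KO nerve and -0.31 in control nerve, the same direction as the first, and -0.17 in cut nerve between the genotypes, the opposite direction.

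**Figure D2:**
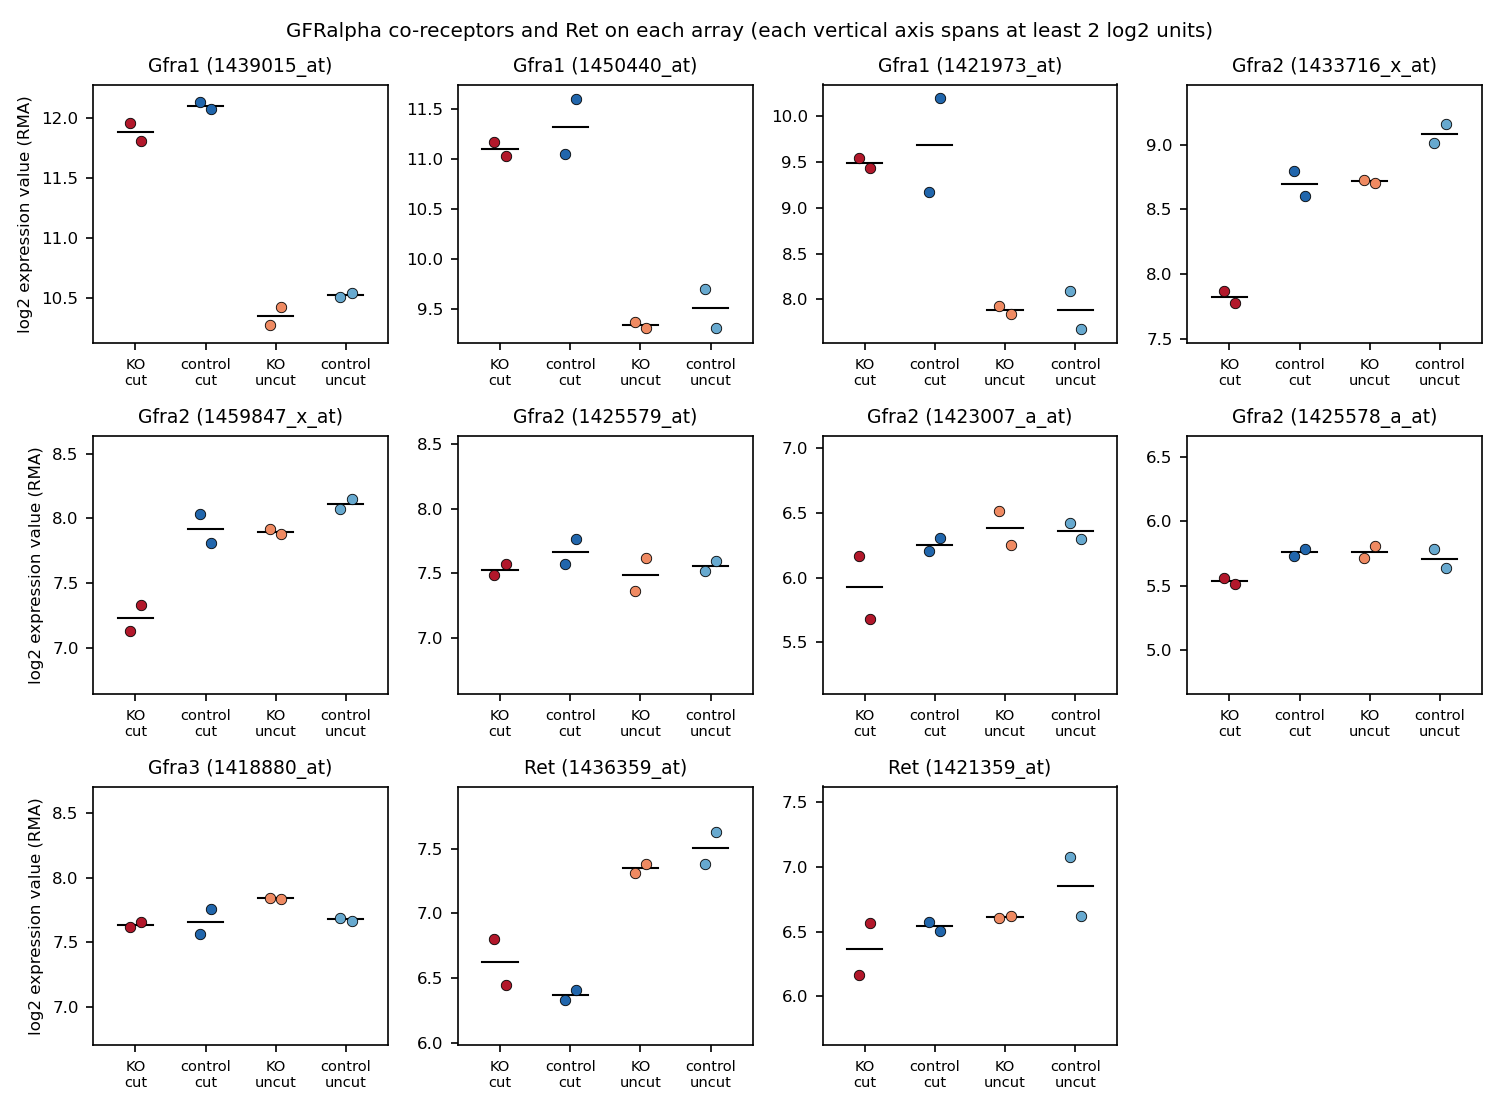
Log2 expression values (RMA, vertical axis) of the 11 probe sets of Gfra1, Gfra2, Gfra3 and Ret on each of the 8 arrays, by group, with points for arrays and bars for group means. The 3 Gfra1 probe sets are high in cut nerve of both genotypes, the pair of Gfra2 x_at probe sets is lowest in c-Jun KO cut nerve, and the first Ret probe set is lower in cut than in uncut nerve.

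Over the family, 4 of 14 probe sets rose and 3 fell after the cut in c-Jun KO nerve, where 8.49% and 8.74% of all probe sets did. In control nerve 5 rose and 2 fell, beside 9.99% and 9.64% of all. The groups did not overlap for 13 probe sets in the mutant and 10 in control, where 57.0% and 57.2% of all probe sets are apart in this way. The median change was -0.19 in the mutant and 0.08 in control, beside -0.02 and 0.00 over all probe sets.

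In cut nerve 3 of 14 probe sets (Gdnf, Artn and Gfra2) were lower in the mutant and 0 were higher, beside 0.298% and 0.184% of all. The groups were apart for 9 of 14, beside 36.5% of all. The median difference was -0.22, beside -0.01. Of the 14, 13 had a negative difference in cut nerve, and the exception was the first Ret probe set. The 13 hold 3 probe sets of Gfra1 and 5 of Gfra2, and some of their signs changed in fits without 1 array. The share of negative differences over all probe sets was not counted.

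In uncut nerve the groups were apart for 5 of 14, beside 27.0% of all. There limma called 0 of the 14, beside 0.00444% of all probe sets. Of the 14, 1 had an unadjusted p under 0.05 (beside 2.73% of all), the brighter Gfra2 x_at probe set. For the genotype by injury interaction limma called 0 of the 14, beside 0.0511% of all. Here 4 had an unadjusted p under 0.05 (beside 5.92% of all): Gdnf, Artn and the pair of Gfra2 x_at probe sets. The comparisons share arrays, so their values for a gene are not independent of each other.

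**Figure D3:**
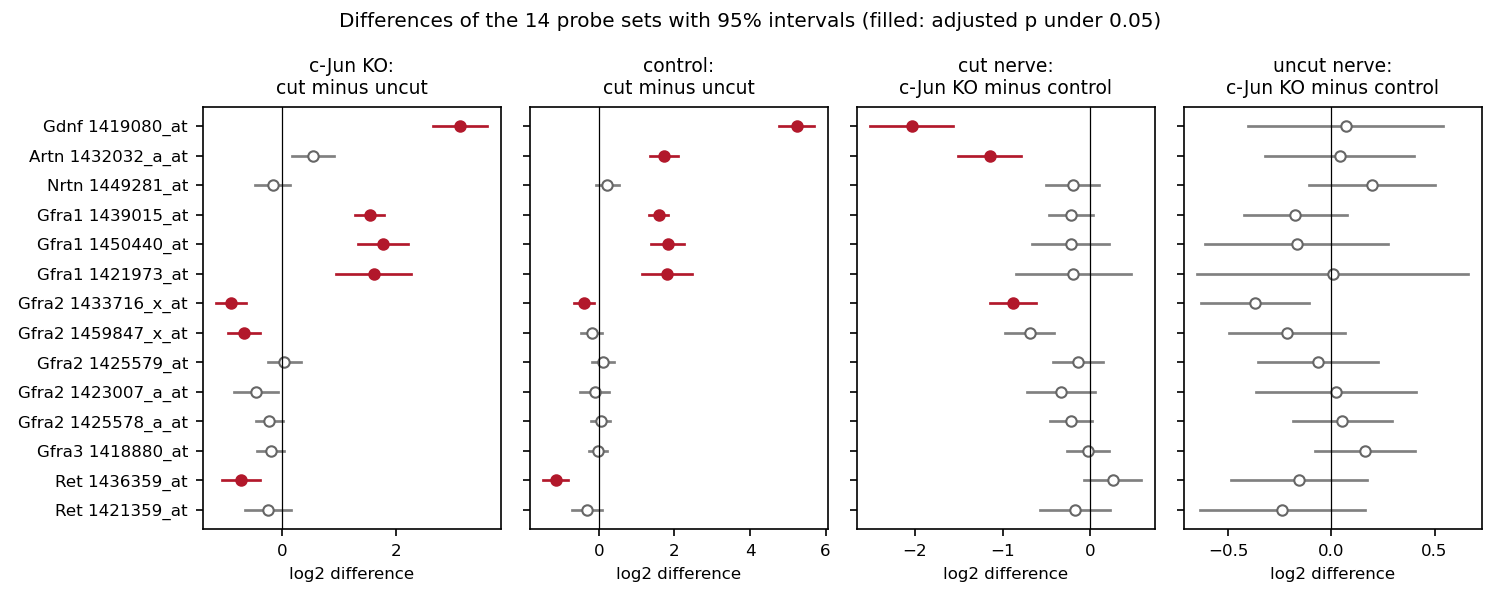
Log2 differences (horizontal axis) of the 14 probe sets with 95% intervals of the limma model, for cut minus uncut in c-Jun KO and in control and for c-Jun KO minus control in cut and in uncut nerve, each panel on its own scale and filled red where the adjusted p is under 0.05. Gdnf at -2.04, Artn at -1.15 and 1 Gfra2 probe set at -0.88 are the filled points of the genotype comparison in cut nerve, and no point is filled in uncut nerve.

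**Figure D4:**
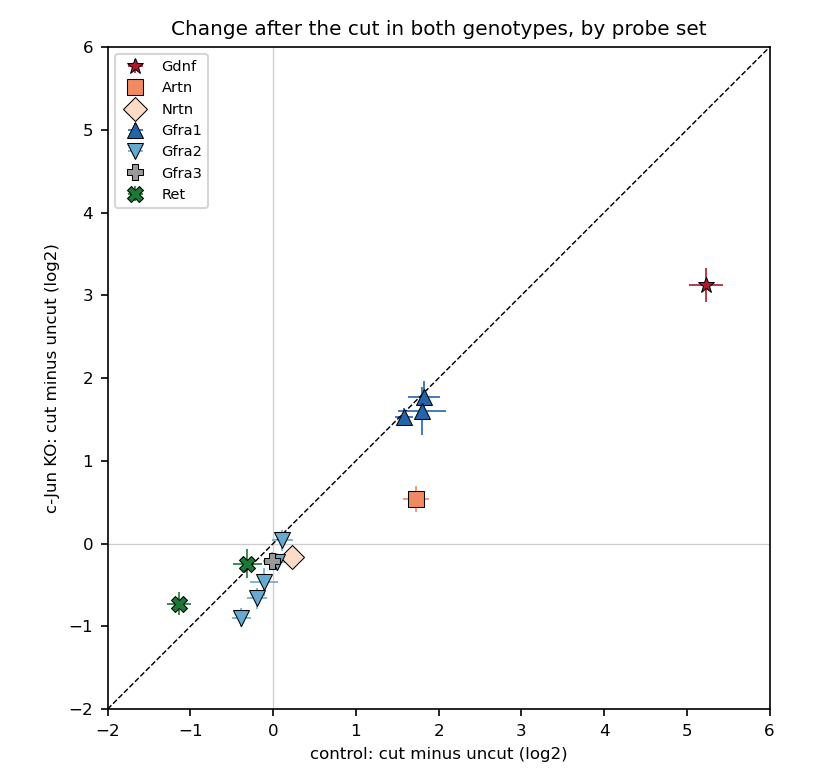
Change after the cut in c-Jun KO nerve (vertical axis, log2) against that in control nerve (horizontal axis, log2), with 1 point for each of the 14 probe sets, SE bars and a dashed line of equal change. The Gfra1 points lie close to the line, while Gdnf (3.12 in c-Jun KO, 5.23 in control) and Artn (0.54 in c-Jun KO, 1.72 in control) lie below it.

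Other genes of the pathway were read from 4 lists. Among 9 genes for alternative receptors and other ligands, of which 7 were measured, 2 rose and 2 fell after the cut in c-Jun KO nerve, and 2 rose and 1 fell in control nerve. Of all 18193 genes, counted by at least 1 called probe set, 12.9% rose and 13.5% fell in the mutant and 16.1% rose and 13.1% fell in control. Met, the receptor of hepatocyte growth factor, and Itgb1, the integrin β1 chain, rose in both, Met by 1.25 in c-Jun KO nerve and 2.12 in control nerve on its brighter probe set. Itgb1 rose by 0.93 in the mutant and 0.84 in control on 1 probe set, and by 0.49 and 0.58 on its brightest. Ncam1, the GDNF receptor outside the Ret pathway, fell in control nerve by 2.13 on a dim probe set (log2 -2.13, adjusted p = 0.00059) and by 0.70 on its brightest (log2 -0.70, adjusted p = 0.0370). In c-Jun KO nerve Ncam1 was not called, with -0.34 on its brightest probe set (limma adjusted p = 0.297). The dim probe set averaged 5.99 in c-Jun KO cut, 4.91 in control cut, 6.32 in c-Jun KO uncut and 7.04 in control uncut nerve. In the mutant the adhesion molecule Cdh2 (-0.70) and Gfra4, the persephin co-receptor (-0.54), fell. Their changes in control nerve, -0.38 and -0.19, had the same sign and were not called, and neither interaction passed (limma adjusted p = 0.931 and 0.868). Gfra4 averaged 5.71 in c-Jun KO cut, 5.72 in control cut, 6.25 in c-Jun KO uncut and 5.91 in control uncut nerve. The call of Cdh2 held in 5 of 8 fits without 1 array (adjusted p up to 0.0760, without c-Jun KO uncut replicate 2) and not without the 2 cut arrays with more Csn2 (adjusted p = 0.0985). That of Gfra4 held in 6 of 8 (up to 0.0805, without c-Jun KO cut replicate 1).

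Met was the gene of that list that differed between the genotypes in cut nerve, where 0.544% of all genes were lower and 0.297% higher. Its brighter probe set read 11.09 and 11.16 in c-Jun KO cut nerve, against 11.91 and 11.86 in control cut nerve, and 9.92 and 9.82 in c-Jun KO uncut nerve, against 9.78 and 9.75 in control uncut nerve. It was lower in mutant cut nerve (log2 difference -0.76, SE 0.10, limma adjusted p = 0.0233), a call that held in 4 of 8 fits without 1 array (adjusted p up to 0.177, without c-Jun KO cut replicate 1) and not without the 2 cut arrays with more Csn2 (adjusted p = 0.323). The second Met probe set gave -0.97 (adjusted p = 0.179).

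Among 29 adaptors and effectors of Ret, of which 23 were measured, 4 rose and 2 fell after the cut in c-Jun KO nerve, and 8 rose and 3 fell in control nerve. The adaptors Gab2 (1.01 in c-Jun KO, 1.26 in control) and Grb2 (0.98 in c-Jun KO, 1.01 in control) rose in both. Gab1 (-0.86 in c-Jun KO, -1.02 in control) and the PI3-kinase subunit Pik3r1 (-0.85 in c-Jun KO, -1.52 in control) fell in both. Dok1 rose in control nerve by 0.89 and changed by 0.56 in c-Jun KO nerve, where it was not called (limma adjusted p = 0.0866). The calls of Gab1 in c-Jun KO nerve (-0.70) and of Dok1 in control nerve (0.74) were lost without the 2 cut arrays with more Csn2. Each held in 6 of 8 fits without 1 array, with changes of -1.02 to -0.70 for Gab1 and 0.645 to 1.14 for Dok1.

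Dok4, a docking protein that binds activated Ret, was the called gene of this list between the genotypes. It read 7.86 and 8.74 in c-Jun KO cut nerve, against 10.11 and 10.13 in control cut nerve. In uncut nerve it read 7.51 and 7.62 in c-Jun KO and 7.77 and 7.63 in control. After the cut its change was 0.73 in the mutant (adjusted p = 0.0736), and it rose by 2.42 in control nerve (SE 0.24, 5.35-fold, adjusted p = 0.00022). In cut nerve it was lower in the mutant (log2 difference -1.82, SE 0.24, 3.54-fold, limma adjusted p = 0.0227), a call kept in 6 of 8 fits without 1 array, with an adjusted p of up to 0.144 without control cut replicate 1. The mutant cut arrays lay further apart than those of any other group.

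Among 18 regulators of Ret signalling and ligand sorting, 3 rose and 4 fell in c-Jun KO nerve and 4 rose and 4 fell in control nerve. The phosphatase Ptprf, which is known to restrain Ret, fell, by 1.59 in c-Jun KO nerve (log2 -1.59) and by 2.13 in control nerve (log2 -2.13), on different probe sets. The convertase Furin (0.64 in c-Jun KO, 1.02 in control) and the ERK inhibitor Spred1 (0.71 in c-Jun KO, 0.88 in control) rose. On its brightest probe set Spred1 rose by 0.59 in c-Jun KO and 0.75 in control nerve. Another convertase of the list, Pcsk6, fell in both (-1.28 in c-Jun KO, -1.14 in control). Without the 2 cut arrays with more Csn2 the call of Furin in c-Jun KO nerve was lost (0.53, adjusted p = 0.0683). Of 10 genes, 8 of them measured, known as targets of Ret signalling in other tissues, the chemokine receptor Cxcr4 (2.62 in c-Jun KO, 2.40 in control) and the ERK phosphatase Dusp6 (0.74 in c-Jun KO, 0.57 in control) rose in both. Myb was at the threshold in the mutant (-0.51, adjusted p = 0.0499), a call that held in 1 of 8 fits without 1 array (adjusted p up to 0.267, without c-Jun KO uncut replicate 2) and not without the 2 cut arrays with more Csn2 (adjusted p = 0.275). On its brightest probe set Myb changed by -0.42 in the mutant (limma adjusted p = 0.0925) and -0.17 in control nerve (adjusted p = 0.525), and neither was called. No gene of these last lists was called between the genotypes in cut nerve, and Etv4 and Etv5, which Ret induces in kidney, stood at -0.30 and -0.17 there.

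Markers of several cell types moved with the cut, and their part in the results was not tested. Of 6 markers of denervated Schwann cells 5 rose with Gdnf in c-Jun KO nerve and 6 in control nerve. All 5 markers of myelinating Schwann cells, 3 perineurial markers and 3 adipocyte markers fell in both. Of 7 macrophage genes 6 rose in c-Jun KO nerve and 7 in control nerve. Of 9 skeletal muscle genes 8 rose in each genotype, among them Chrna1, an acetylcholine receptor subunit, by 5.14 in c-Jun KO and 4.66 in control nerve. The gene not called was Chrng, another acetylcholine receptor subunit (0.94 in each genotype, limma adjusted p = 0.0851 in c-Jun KO and 0.0789 in control). The mean log2 level of the muscle list was 12.28 to 12.87 in c-Jun KO cut nerve, 11.99 to 12.59 in control cut nerve, 9.91 to 10.47 in c-Jun KO uncut nerve and 9.73 to 10.53 in control uncut nerve. Muscle is itself known as a source of GDNF. Between the genotypes in cut nerve 0 of the 9 muscle genes passed, with a median difference of 0.26.

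Between the genotypes in cut nerve, 4 of 6 markers of denervated Schwann cells (Olig1, Gap43, Shh and Tnc) were lower. The mean log2 level of that list was 9.73 to 10.02 in c-Jun KO cut nerve and 11.29 to 11.46 in control cut nerve. Of 4 general Schwann lineage markers 0 passed, with a mean log2 level of 10.59 to 10.74 in c-Jun KO cut nerve and 10.80 to 10.83 in control cut nerve. Of the macrophage (7 genes), fibroblast (6), endothelial (5), mural (4) and neuron (7) lists, no gene passed there. Of 5 markers of myelinating Schwann cells 1 was higher in the mutant, the myelin protein gene Mbp (1.35 on 1 probe set, limma adjusted p = 0.0128, and 0.99 on its brightest, adjusted p = 0.0253). The mean log2 level of that list was 9.28 to 9.62 in c-Jun KO cut nerve and 9.13 to 9.19 in control cut nerve. The granzyme gene Gzmb, 1 of 5 T and NK cell genes, was lower (-2.25).

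The genes whose values over the 8 arrays ran closest to those of each family member were found by the distance between the values of a pair of genes, each centred on its own mean, among 18192 other genes. For Gdnf these were Btc, a ligand of the EGF receptor (distance 0.96), the AMPA receptor subunit Gria1 (1.13), the growth factor Fgf5 (1.20), the chromatin protein Hmga2 (1.22) and the matrix protein Tnc (1.23). Btc averaged 9.08 in c-Jun KO cut nerve, 10.58 in control cut nerve, 6.13 in c-Jun KO uncut nerve and 6.00 in control uncut nerve. Its rises of 2.95 in c-Jun KO and 4.59 in control were both smaller than those of Gdnf, and so were those of Fgf5 (2.55 in c-Jun KO, 4.41 in control). In c-Jun KO nerve Gria1 (3.21), Hmga2 (3.55) and Tnc (3.99) rose more than Gdnf (3.12). In control nerve Gria1 (4.73) and Hmga2 (4.42) rose less than Gdnf (5.23), and Tnc (5.55) rose more.

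For Artn the closest genes were Emilin1, an elastin-associated matrix protein (distance 0.40), the transcription factor Tfap2a (0.43), Oaf (0.48), Syt13 (0.50) and the actin-associated protein Synpo (0.54). Tfap2a changed by 0.64 in c-Jun KO and 1.61 in control nerve after the cut, close to Artn in both. For Gfra1 they were Sgo1, a guardian of chromosome cohesion (0.25), the lysosomal protein gene Psap (0.31), Parpbp (0.32), Klrd1 (0.32) and Lhfpl2 (0.32), each with nearly equal changes in both genotypes. Psap, for example, rose by 1.62 in c-Jun KO and 1.72 in control nerve. For the x_at probe set of Gfra2 the closest was Gng2 (0.41), and for Ret the closest was Kantr (0.17). The 8 arrays form 4 groups, so such a distance compares few independent levels. The genes were picked by this distance, so changes like those of the family member follow from the choice.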

How the data were processed

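Sciatic nerve RNA was hybridised to 8 Affymetrix arrays of 1 colour, 2 per group. Per the submitters' processing notes, the deposited values were made with RMA and the package affy, which gives 1 log2 value per probe set and array after background correction and quantile normalisation. The sources used here give no versions and no detection calls. RMA is known to shrink differences between dim values. The number of arrays limits the precision.

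Of 45101 probe sets 64 controls were left out. Symbols came from the platform annotation (34945 probe sets with 1 symbol, 932 with several, 9160 with none), checked by gene number against a current gene table, with 0 changed. The log2 values were used as deposited. With R 4.3.3 and limma 3.58.1, group means were fitted over all 8 arrays and probe sets, without a filter on low values, so that dim members were kept (4 residual and 4.45 prior degrees of freedom, prior SD 0.132). A filter at the array median on 2 arrays would keep 10 of the 14 probe sets. Calls are two-sided at a Benjamini-Hochberg adjusted p under 0.05 over all probe sets, in 5 contrasts. The model was tested on simulated data. A gene's list count uses any called probe set. The change given for a called list gene is that of its called probe set with the largest change, unless another is named. List medians and mean levels, uncalled list genes and the closest genes use the brightest probe set. Genes named are the family members, Jun, up to 6 called genes per list and contrast and the 5 closest genes of members whose group means span at least 1. Other genes named, among them Csn2, marker genes, Etv4 and Etv5, were chosen after their values were seen. The members and lists were chosen with earlier results of these data known. Alternatives were filters, gene units, scalings, variance models, array weights, fewer arrays and the replicate number as a block.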

Additional observations from a re-analysis of the deposited data

How the results depend on the processing

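Of 58 called changes of Jun, family and pathway genes followed through 993 alternative values, 0 changed sign, 900 kept the call and 93 lost it. Between the genotypes in cut nerve 3 family probe sets were called, 0 to 3 in the fits without 1 array, 1 (Gdnf) with only the 4 arrays compared and 0 without the 2 cut arrays with more Csn2, a fit chosen after seeing the data. Over all probe sets these calls numbered 217, and 27 to 155, 93 and 33 in the same settings. For the interaction 0 family probe sets were called, but 1 (Gdnf, adjusted p = 0.0498) with a trended and robust variance and 0 to 1 in the fits without 1 array (Gdnf, adjusted p = 0.0444 without c-Jun KO cut replicate 2). Over all probe sets 23 became 44 and 0 to 48, and 10 with the stricter filter, 11 with further quantile normalisation and 43 with the replicate block. In uncut nerve 2 became 0 to 6, 4 with median centring, 5 with the replicate block and 19 with only the 4 arrays compared. After the cut 7758 became 4185 to 7441 in c-Jun KO nerve and 8841 became 5695 to 8595 in control nerve in the fits without 1 array. Without the 2 cut arrays with more Csn2 they were 3828 and 5704. The stricter filter gave 5128 in c-Jun KO and 5769 in control nerve, and single-gene units 4349 and 4392 in c-Jun KO and 4880 and 4833 in control nerve. A fit without 1 array leaves 1 array in a group, which is assumed to vary like the others.

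With the replicate number as a block, family counts did not change in any contrast (7, 7, 3, 0 and 0). The numbers share no stated origin, and the deviations of same-numbered arrays correlated between -0.04 and 0.30 over pairs of groups, so they were not taken as pairs. Cut and uncut pools of a genotype may still come from the same mice, since the uncut nerve is that of the opposite leg. The block was a single term over both genotypes, so it cannot test a pairing within a genotype.

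Several differences that were not called changed sign. With median centring these were Gfra3 after the cut in control nerve (0.0027) and Gfra1 1421973_at in uncut nerve (-0.0056, and -0.0094 with further quantile normalisation). Without the 2 cut arrays with more Csn2 they were Gfra3 after the cut in control nerve (0.0776), Gfra2 1425579_at after the cut in c-Jun KO nerve (-0.0049), and, in the interaction, Gfra1 1439015_at (0.0534) and Ret 1421359_at (-0.0995). In the fits without 1 array the ranges that spanned 0 were, after the cut, Gfra2 1425578_a_at (-0.0242 to 0.1191) and Gfra3 (-0.1107 to 0.0776) in control and Gfra2 1425579_at (-0.0882 to 0.164) in c-Jun KO. In cut nerve they were Gfra1 1450440_at (-0.4976 to 0.0511) and 1421973_at (-0.7067 to 0.3194), Gfra3 (-0.119 to 0.0693) and Ret 1421359_at (-0.3733 to 0.0234). In uncut nerve they were Gdnf (-0.0818 to 0.2189), Artn (-0.0043 to 0.0827), Gfra1 1450440_at (-0.3645 to 0.0253) and 1421973_at (-0.1998 to 0.2129), and Gfra2 1425579_at (-0.1911 to 0.0611), 1423007_a_at (-0.1103 to 0.1535) and 1425578_a_at (-0.0193 to 0.1241). In the interaction they were Gfra1 1439015_at (-0.1245 to 0.0272), 1450440_at (-0.328 to 0.2207) and 1421973_at (-0.7133 to 0.3129), Gfra2 1425579_at (-0.2009 to 0.0512) and Ret 1421359_at (-0.1629 to 0.2899). The causes were not tested.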

Other observations

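The c-Jun KO cut arrays differed from each other in Jun and in some of the genes that were lower in that group. Replicate 1 had 10.39 and replicate 2 had 10.80 for Jun. The same arrays had 7.48 and 8.00 for Gdnf, 5.43 and 5.81 for Artn and 7.86 and 8.74 for Dok4, each higher where Jun was higher, while the first Gfra2 probe set had 7.87 and 7.77. Other genes lower in that group were nearly level, with 11.09 and 11.16 for Met and 6.84 and 6.80 for Gap43. In the control cut arrays Jun was 11.88 and 11.96, and Gdnf (9.97 and 9.59) and Artn (6.94 and 6.59) ran the other way. A relation between these genes across arrays was not tested, and the c-Jun KO cut array of higher Jun also had the higher Csn2.

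Pspn encodes persephin, the remaining ligand of the family, and Gfra4 its co-receptor. Pspn differed by 0.06 (adjusted p = 0.954) and Gfra4 by -0.01 (adjusted p = 0.995) between the genotypes in cut nerve.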
